A study of Mus musculus with 12 samples.

Results

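The transcripts of 10 integrin subunits were followed through the differentiation of a muscle cell line with and without a bromodomain ligand. The genes were taken by symbol from the 12 libraries of the study, as 10 of the 16288 genes listed in at least 1 library. They are 7 alpha subunits (Itga3, Itga4, Itga5, Itga6, Itga7, Itga9 and Itgav) and 3 beta subunits (Itgb1, Itgb3 and Itgb5). All libraries came from C2C12, an immortalized mouse myoblast line with no added transgene named in the labels. Cells were sampled while proliferating in serum-rich growth medium (GM), or at 24 h and 48 h after a change to differentiation medium with horse serum and insulin (DM 24h and DM 48h). At each stage they received DMSO, the vehicle, or 50 uM PFI-3, which binds the bromodomains of the chromatin-remodelling proteins BRG1 (Smarca4), BRM (Smarca2) and PB1 (Pbrm1). Both agents were given for 12 h before harvest of GM cells or before induction, and were renewed every 24 h. Libraries A and B of each of the 6 groups are called biological duplicates in the study's design.

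Integrins are cell-surface receptors made of 1 alpha and 1 beta subunit, and the pair sets which matrix protein is bound. In muscle, the alpha5 subunit with beta1 binds the RGD sequence of fibronectin, whereas alpha7 with beta1 binds laminin and anchors the mature fibre to its basement membrane. Myoblasts are known to move from fibronectin-binding towards laminin-binding integrins as they stop dividing and fuse. The alpha3 and alpha6 subunits also pair with beta1 to bind laminins. The alphav subunit pairs with beta1, beta3 or beta5 to bind vitronectin and other RGD proteins, and alpha4 and alpha9 bind VCAM1, fibronectin or tenascin.

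The libraries held between 12576374 and 13658352 expected counts and listed 13499 to 14231 genes each. Of the 10 subunits, 9 passed the filter on low counts, and Itga9 did not. The 5 myoblast markers checked (Myod1, Myf5, Des, Cdh15, Met) were detected in every group. The summed level of 8 differentiation markers (Myog, Myh3, Ckm, Acta1, Mymk, Tnnt3, Actc1, Ttn) ran from 9.15 to 14.4 CPM (counts scaled by sequencing depth) in GM to 25005 and 25063 CPM in DMSO cells at DM 48h. Markers of leukocytes summed to at most 9.97 CPM, with Cd3e at 0, and those of endothelial, adipocyte, epithelial and osteoblast cells to at most 1.55 CPM, with Plin1 and Ibsp at 0. The GM duplicates differed more than the others: over genes, the log2 difference of B from A had an SD of 0.333 and 0.316 in the GM groups and 0.138 to 0.145 in the DM groups.

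In proliferating DMSO cells the beta1 subunit led, with a mean of 179.8 FPKM (fragments counted per unit of transcript length and of sequencing depth, so that genes can be set side by side). Itga5, Itga7 and Itga3 followed with means of 71.9, 58.5 and 56.1 FPKM, and neighbours in that order overlapped between libraries. Itgav and Itgb5 came next at 29.5 and 27.0 FPKM and also overlapped. Itga6 stood at 20.5, Itgb3 at 8.17 and Itga4 at 0.070 FPKM. At DM 24h in DMSO the order had a new head: Itga7 at 171.7 FPKM lay above Itgb1 at 153.7 FPKM with no overlap of the libraries. At DM 48h Itga7 stood at 218.2 FPKM, Itgb1 at 153.0, Itgb5 at 52.7 and Itga5 at 45.0 FPKM. These are RNA levels of a whole culture, in which fewer cells of a type and less RNA per cell cannot be told apart.

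**Figure D1:**
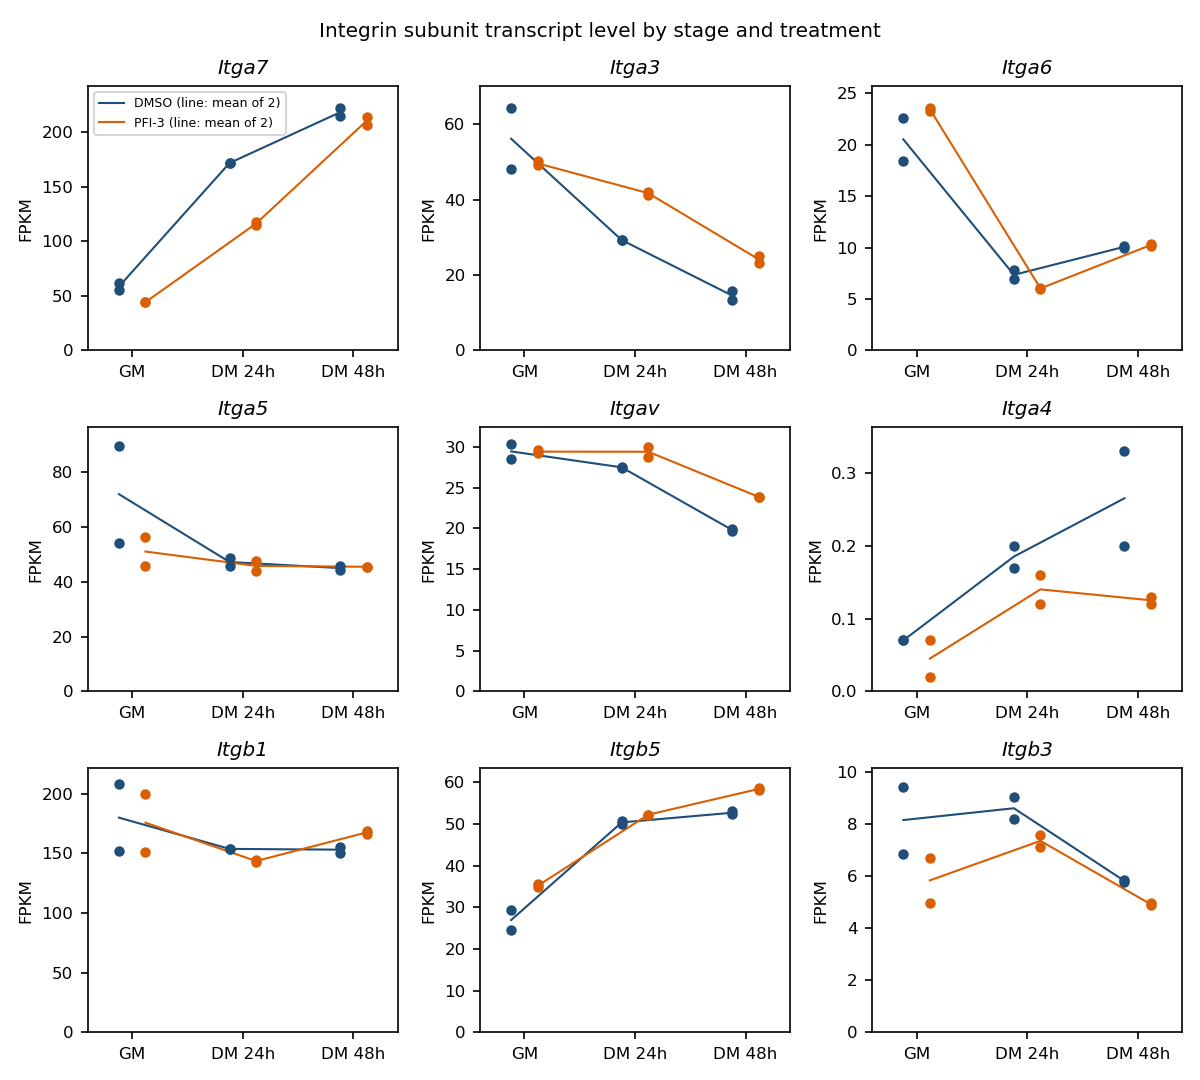
FPKM (vertical axis, from 0) of the 9 subunits that passed the filter, at the 3 stages (horizontal axis), for DMSO in blue and PFI-3 in orange; points are single libraries and lines join the means of 2. Itga7 rises from 55.5 and 61.5 FPKM to 215 and 222 FPKM in DMSO cells, while Itga3 falls from 48.0 and 64.2 to 15.7 and 13.4 FPKM.

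The 3 laminin-binding alpha subunits changed in different directions as DMSO cells differentiated. Itga7 (chr10:128933421-128958286, GRCm38), the muscle laminin receptor, stood at 55.5 and 61.5 FPKM in GM, 172 and 172 FPKM at DM 24h, and 215 and 222 FPKM at DM 48h. No libraries of different stages overlapped. Its log2 fold change, fitted from counts, was 1.5 ± 0.06 (SE, n = 2 per group) from GM to DM 24h, with an edgeR adjusted p of 9.73e-10. A further rise of 0.41 ± 0.06 on the log2 scale followed to DM 48h (edgeR adjusted p = 9.05e-05), for 1.91 ± 0.06 in all, or 3.76-fold. Itga3 (chr11:95044475-95076844), a laminin receptor of many epithelia, moved the other way at both steps. Its levels were 48.0 and 64.2 FPKM in GM, 29.2 and 29.3 FPKM at DM 24h, and 15.7 and 13.4 FPKM at DM 48h. It fell by 0.99 ± 0.10 on the log2 scale in the first 24 h (edgeR adjusted p = 5.57e-06) and by 0.95 ± 0.11 in the next 24 h (edgeR adjusted p = 1.51e-05), ending 3.82-fold lower than in GM. Itga6 (chr2:71786886-71858427), which also serves as a laminin receptor, went down and then partly back up. It read 22.6 and 18.5 FPKM in GM, 7.78 and 6.92 FPKM at DM 24h, and 9.98 and 10.2 FPKM at DM 48h. The early fall was 1.53 ± 0.11 on the log2 scale in size (edgeR adjusted p = 1.82e-07), and the later rise was 0.52 ± 0.11 (edgeR adjusted p = 0.0019). These 3 genes kept their calls and directions in all 14 alternative analyses of each step.

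Itga7 and Itga6 each have 2 transcripts in the files, as do Itga5, Itga9 and Itgb5, while Itga3 has 3. For such genes the deposited length can carry information on transcript usage that the counts do not. This length was constant across libraries for 9651 of 9651 genes with 1 transcript, and for genes with several it behaves as a mean weighted by transcript abundance, although the files do not say so. The transcripts of Itga7 differ in exon 5 of 25, where the annotation places 1 of 2 mutually exclusive exons, known as X1 and X2, in the ligand-binding part of the protein. The transcripts of Itga6 differ by exon 25 of 26, which is known to encode the cytoplasmic tail of the A form. These exons are printed because they are the coding stretches by which the transcripts differ, 5′ to 3′ on the plus strand of GRCm38 (GENCODE M21), with coding exon bases in capitals and, in lower case, up to 15 bases of the neighbouring exons as joined in the spliced transcript. The 132-base Itga7 exon is at chr10:128941445-128941576, the 120-base Itga7 exon at chr10:128941822-128941941, and the Itga6 exon at chr2:71853534-71853663, of which the 105 coding bases are shown.
Itga7 exon of 132 bases: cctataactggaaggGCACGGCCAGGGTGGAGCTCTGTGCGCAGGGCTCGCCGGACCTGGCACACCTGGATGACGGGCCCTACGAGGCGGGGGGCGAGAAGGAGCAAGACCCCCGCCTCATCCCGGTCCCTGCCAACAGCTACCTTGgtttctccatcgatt
Itga7 exon of 120 bases: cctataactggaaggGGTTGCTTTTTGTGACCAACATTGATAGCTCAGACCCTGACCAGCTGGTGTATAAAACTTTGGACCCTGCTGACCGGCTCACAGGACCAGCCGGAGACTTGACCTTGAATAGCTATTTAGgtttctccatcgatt
Itga6 exon, coding part: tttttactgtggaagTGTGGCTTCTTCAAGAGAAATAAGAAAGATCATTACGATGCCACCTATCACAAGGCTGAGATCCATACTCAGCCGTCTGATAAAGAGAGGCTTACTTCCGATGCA

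The deposited length of Itga7 was higher with PFI-3 than with DMSO at every stage. In GM it was 4041.05 and 4039.39 bases with DMSO and 4041.31 and 4041.64 bases with PFI-3. At DM 24h the DMSO libraries read 4040.19 and 4040.19 bases and the PFI-3 libraries 4041.60 and 4042.07 bases. At DM 48h the values were 4038.72 and 4038.57 bases with DMSO against 4039.87 and 4039.94 bases with PFI-3. Both PFI-3 libraries lay above both DMSO libraries at every stage, as they did for 1.07% of the 4680 genes whose length varied. That share counts only genes longer with PFI-3, and genes apart in the other or a mixed direction were not counted. At single stages the shares of genes longer with PFI-3 without overlap were 16.1% (GM), 17.0% (DM 24h) and 16.7% (DM 48h). In DMSO cells the length was lower at DM 48h than at DM 24h, as it was for 18.4% of those genes. Itga6 read 6003.51 and 6002.69 bases in GM with DMSO, 6001.50 and 6010.81 bases in GM with PFI-3, and 6018.00 bases in all 8 DM libraries. A length lower in all 4 GM than in all 8 DM libraries was found for 4.51% of the 4680 genes. Of the other members with several transcripts, Itga5 read 4440 bases throughout and Itga9 was at the floor of counts. Itga3 lengths overlapped between treatments at every stage. Itgb5 lengths overlapped at both DM stages, and in GM read 3303.80 and 3303.81 bases with DMSO against 3303.67 and 3303.71 bases with PFI-3. The Itga7 and Itga6 patterns were chosen after their values were seen and were not tested. In GENCODE the Itga7 transcript with the 132-base exon has 4020 bases and the other 4013, and the Itga6 transcript with exon 25 has 4310 bases against 4156. All deposited lengths of Itga7 and Itga6 lie above these, so the transcript models differ and no share of either form was computed.

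**Figure D2:**
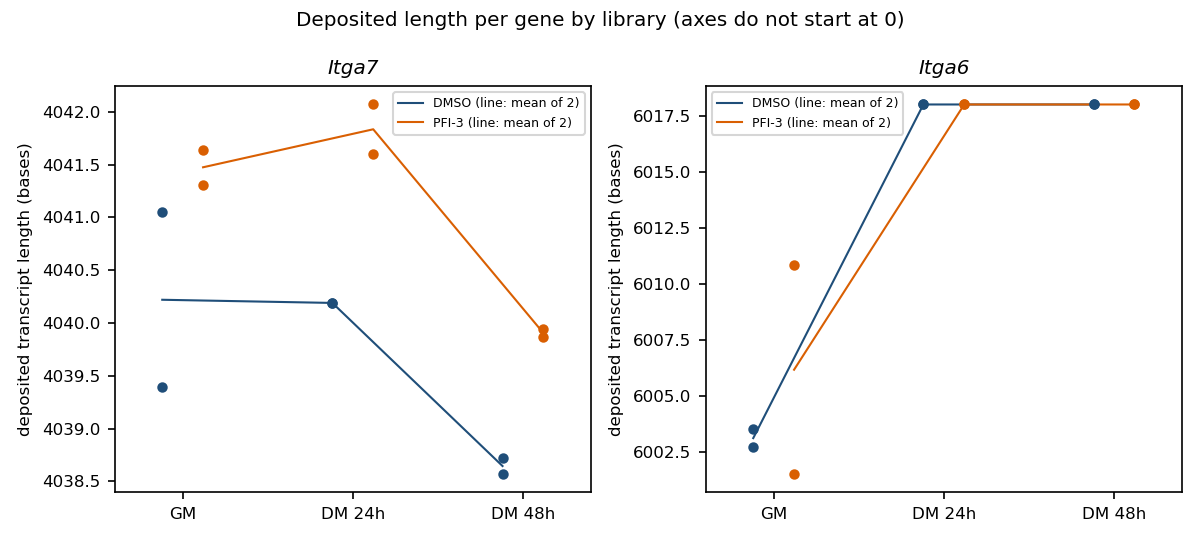
Deposited transcript length in bases (vertical axes, which do not start at 0) of Itga7 and Itga6 at the 3 stages (horizontal axis); points are libraries and lines join the means of 2, DMSO in blue and PFI-3 in orange. For Itga7 the PFI-3 points lie above the DMSO points at each stage, and for Itga6 the 8 DM libraries share the value 6018.00.

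The RGD-binding alpha subunits were lower by DM 48h, by less than Itga3 and Itga6 in fitted size. Itga5 (chr15:103344286-103366791), the fibronectin receptor subunit, read 89.5 and 54.3 FPKM in GM, 48.6 and 45.8 FPKM at DM 24h, and 45.8 and 44.1 FPKM at DM 48h. Both GM libraries lay above all DM libraries, but they were far from each other. Its log2 fold change from GM was -0.67 ± 0.19 by DM 24h (edgeR adjusted p = 0.00794) and -0.68 ± 0.19 at DM 48h (edgeR adjusted p = 0.00569), with no change called between 24 h and 48 h (log2 -0.01 ± 0.19). Both Itga5 calls were lost without GM DMSO library A, where the log2 fold change was -0.22 at either time (edgeR adjusted p = 0.0753 for DM 24h, 0.0581 for DM 48h), and without library B it was -1.01 and -1.02. The call for DM 24h was also lost without DM 24h DMSO library B (adjusted p = 0.0542) and with only the 4 libraries compared (0.061). Itgav (chr2:83722303-83806917), the vitronectin receptor subunit, was at 30.4 and 28.5 FPKM in GM and 27.6 and 27.4 FPKM at DM 24h, a difference that was not called (log2 -0.15 ± 0.07, edgeR adjusted p = 0.0632). It then fell to 19.7 and 20.0 FPKM at DM 48h, by 0.41 ± 0.07 on the log2 scale from DM 24h (edgeR adjusted p = 3.03e-04) and by 0.56 ± 0.07 from GM (adjusted p = 8.21e-06).

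The alpha4 and alpha9 subunits were rare. Itga4 (chr2:79255426-79333114) had 9 and 10 counts in GM, 21 and 25 at DM 24h, then 42 and 25 at DM 48h in DMSO cells. Its log2 fold change was 1.31 ± 0.46 at DM 24h (edgeR adjusted p = 0.0284) and 1.91 ± 0.44 at DM 48h (edgeR adjusted p = 0.00181). The call at 24 h was lost in 6 of 14 alternatives, with adjusted p up to 0.12, among them leaving out any 1 of the 4 libraries compared, and that at 48 h was kept in all 14. Between DM 24h and DM 48h no change was called (log2 0.60 ± 0.38, edgeR adjusted p = 0.216). Itga9 (chr9:118606709-118901003) had at most 3 counts in any library and 0 in several, so it was at or under the floor of 3 counts and no fold is given.

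Among the beta subunits, Itgb5 rose, Itgb3 fell late and Itgb1 had no called change with all libraries in the fit. Itgb1 (chr8:128685654-128733579), the common partner of the laminin- and fibronectin-binding alphas, read 208 and 152 FPKM in GM, 154 and 153 FPKM at DM 24h, and 150.4 and 156 FPKM at DM 48h. The GM range overlapped that of both later stages, and the log2 difference from GM to DM 48h was -0.23 with a 95% interval from -0.51 to 0.06. It was -0.29 ± 0.15 at DM 24h against GM (edgeR adjusted p = 0.108) and 0.06 ± 0.15 from DM 24h to DM 48h (adjusted p = 0.778). The Itgb1 values against GM turned on single libraries: without GM DMSO library B it was called lower at both times (log2 -0.52 and -0.47, edgeR adjusted p = 8.91e-04 and 0.00152), and without library A the values were 0.0011 and 0.061. Itgb5 (chr16:33829665-33949338), a partner of alphav, read 24.5 and 29.4 FPKM in GM, 50.8 and 50.0 FPKM at DM 24h, and 53.1 and 52.3 FPKM at DM 48h. Its log2 fold change was 0.85 ± 0.07 by DM 24h (edgeR adjusted p = 6.09e-07) and 0.98 ± 0.07 by DM 48h (edgeR adjusted p = 6.28e-08), and 0.13 ± 0.07 between the DM stages (adjusted p = 0.135). Itgb3 (chr11:104608000-104670476), also a partner of alphav, read 6.88 and 9.46 FPKM in GM, 8.21 and 9.04 FPKM at DM 24h, and 5.79 and 5.86 FPKM at DM 48h. Its log2 difference from GM to DM 24h was 0.03 ± 0.14 (edgeR adjusted p = 0.854). It fell by 0.50 ± 0.14 on the log2 scale from DM 24h to DM 48h (edgeR adjusted p = 0.011), a call lost in 3 of 14 alternatives that each left out 1 library (DM 24h B, DM 48h A or DM 48h B; highest adjusted p 0.0857). Against GM, its fall of 0.47 ± 0.14 at DM 48h (edgeR adjusted p = 0.00922) was lost without GM library B (adjusted p = 0.0973). Per library, Itgb5 held 3.56 and 3.11 times the FPKM of Itgb3 in GM and 9.17 and 8.92 times at DM 48h.

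Counts of members stand close to the genome-wide rate at some steps and above it at others, over few genes. From GM to DM 24h, 3 of 9 tested members were higher and 3 lower, against 30.6% and 30.0% of all 12545 genes tested. From DM 24h to DM 48h, 2 were higher and 3 lower, against 24.2% and 23.9% of all genes. From GM to DM 48h, 3 were higher (Itga4, Itga7, Itgb5) and 5 lower (Itga3, Itga5, Itga6, Itgav, Itgb3), against 37.2% and 35.9% of all genes. A called change was thus frequent among all genes in this time course.

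Within the pool of alpha-subunit RNA, one gene came to hold most of the sum. Itga7 made up 22.6% and 27.1% of the summed FPKM of the 7 alphas in GM, 60.2% and 61.1% at DM 24h, then 70.1% and 71.6% at DM 48h in DMSO cells. The laminin-binding alphas together held 51.3% and 63.5% in GM, 73.2% and 73.9% at DM 24h, then 78.5% and 79.2% at DM 48h. The GM value is spread over 3 genes, while at DM 48h Itga3 had shrunk to 5.12% and 4.32%. The ratio of Itga7 to Itga3 FPKM was 1.16 and 0.958 in GM, 5.87 and 5.87 at DM 24h, then 13.7 and 16.6 at DM 48h. The summed alpha FPKM rose from 246 and 227 to 306 and 310, so Itgb1 went from 0.844 and 0.669 per unit of alpha FPKM to 0.491 and 0.503. These shares are descriptions with no test, and they concern RNA, not receptor on the cell surface.

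**Figure D3:**
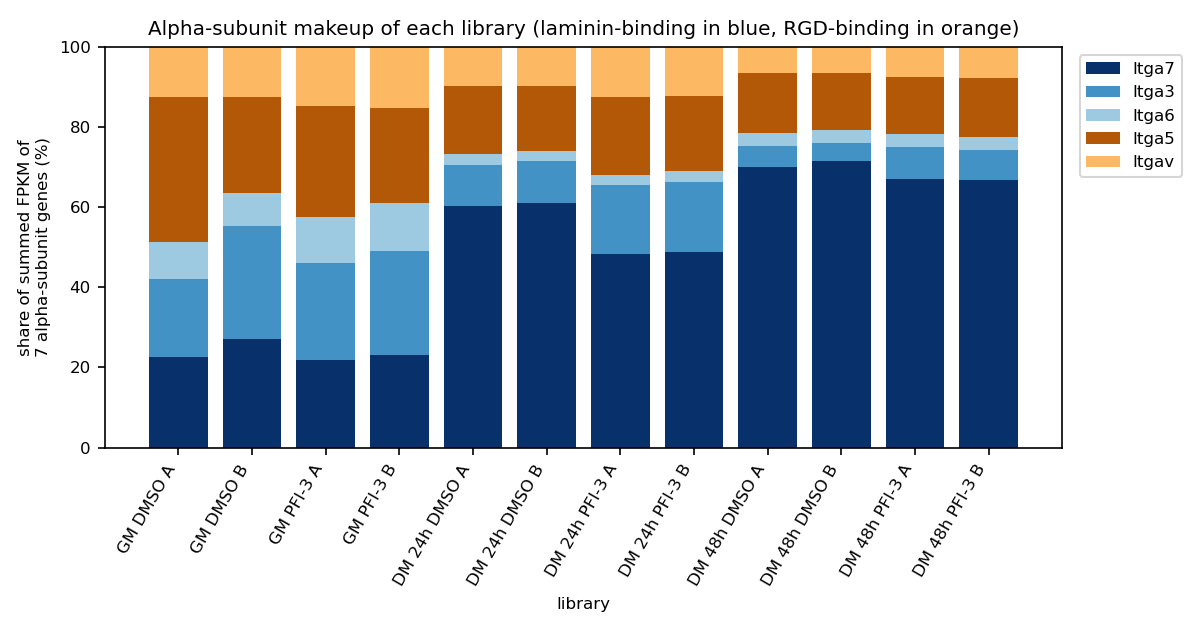
Share of the summed FPKM of the 7 alpha-subunit genes (vertical axis, percent) in each of the 12 libraries (horizontal axis), with laminin-binding subunits in blues and RGD-binding subunits in oranges; Itga4 and Itga9 are too low to see. Itga7 holds 22.6% and 27.1% in GM with DMSO, and at DM 24h 60.2% and 61.1% with DMSO against 48.4% and 48.8% with PFI-3.

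PFI-3 was then compared with DMSO at each stage, using the same DMSO libraries as the time course. Cells at later stages had also been exposed for longer, so stage and length of exposure cannot be told apart. Itga7 was lower with PFI-3 in GM and at DM 24h. In GM it read 44.1 and 44.3 FPKM with PFI-3 against 55.5 and 61.5 FPKM with DMSO (log2 -0.50 ± 0.06, edgeR adjusted p = 3.45e-04). At DM 24h it read 118 and 115 FPKM against 172 and 172 FPKM (log2 -0.61 ± 0.06, edgeR adjusted p = 1.86e-05), or 1.53-fold lower. At DM 48h the values were 214 and 207 FPKM with PFI-3 and 215 and 222 FPKM with DMSO, and the difference was not called (log2 -0.14 ± 0.06, edgeR adjusted p = 0.0924), although it was in 2 of 14 alternatives, those with only the libraries compared (lowest adjusted p 0.00105). Among the 5 myoblast markers, 3 (Cdh15, Des and Met) were also lower with PFI-3 in GM, where the list summed to 659 and 760 CPM against 983 and 996 CPM. Cdh15 and Met were called lower with PFI-3 at both DM stages too. From GM to DM 48h in DMSO cells, Myod1, Cdh15 and Des were called higher and Myf5 and Met lower. The part of these markers in the Itga7 difference was not tested. The PFI-3 difference at DM 48h was less negative than at DM 24h by 0.47 ± 0.08 on the log2 scale (interaction, edgeR adjusted p = 0.00253) and than in GM by 0.36 ± 0.08 (adjusted p = 0.0112). The call at DM 24h and the first of these interactions held in all 14 and all 18 alternatives. The second was lost in 3 of 18, without DM 48h library A of either treatment or with only the libraries compared (adjusted p up to 0.0713), and the GM call was lost only when the 4 GM libraries were fitted alone (adjusted p = 0.173).

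Itga3, which declined through differentiation in DMSO cells, was higher with PFI-3 at both DM stages. At DM 24h it read 42.1 and 41.3 FPKM with PFI-3 against 29.2 and 29.3 FPKM with DMSO (log2 0.46 ± 0.10, edgeR adjusted p = 0.00705). At DM 48h it read 25 and 23.3 FPKM against 15.7 and 13.4 FPKM (log2 0.65 ± 0.11, edgeR adjusted p = 8.07e-04), or 1.57-fold higher. In GM the PFI-3 libraries, 49.1 and 50.1 FPKM, lay within the DMSO range of 48.0 to 64.2 FPKM, though not within that of TMM-scaled CPM, and no change was called (log2 -0.27 ± 0.10, edgeR adjusted p = 0.101). The PFI-3 difference was greater than in GM by 0.74 ± 0.14 at DM 24h (interaction, edgeR adjusted p = 0.0189) and by 0.92 ± 0.15 at DM 48h (adjusted p = 0.0015). The DM 48h call and its interaction held in all alternatives run. The DM 24h call was lost without DM 24h DMSO library A, DMSO library B or PFI-3 library A (adjusted p up to 0.0586), and the DM 24h interaction in 8 of 18 alternatives (adjusted p up to 0.102), which include each of the 4 DM 24h libraries left out in turn.

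**Figure D4:**
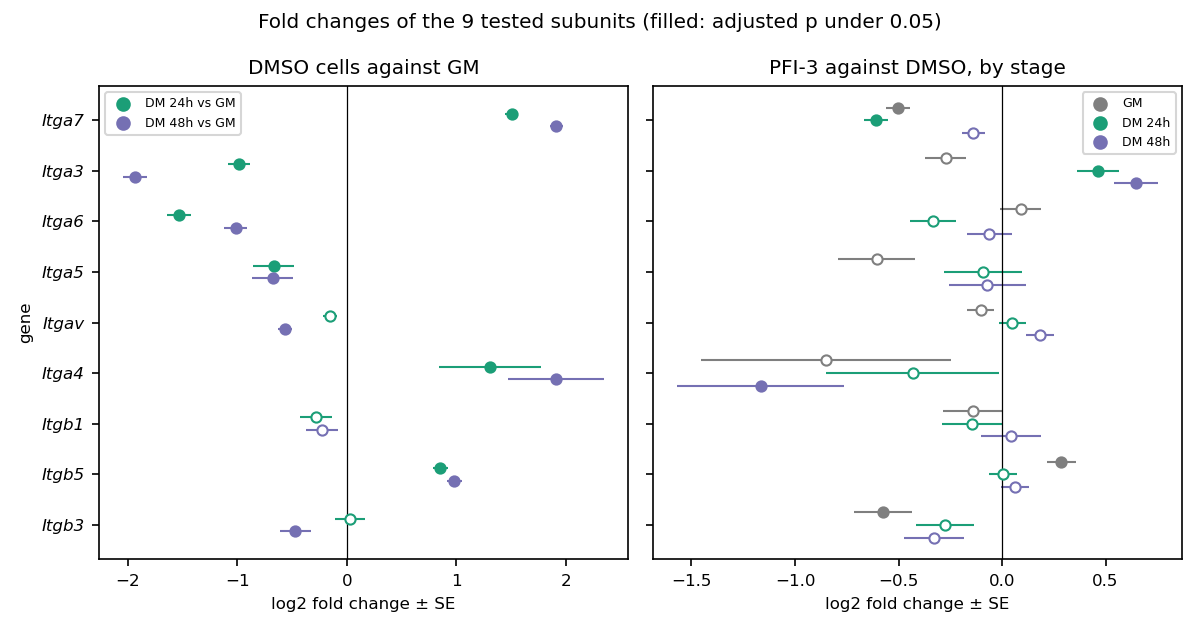
Log2 fold change ± SE (horizontal axes) of the 9 tested subunits (vertical axis), fitted from counts over 12 libraries: left, DMSO cells at DM 24h and DM 48h against GM; right, PFI-3 against DMSO at each stage. Filled points have an adjusted p under 0.05; with PFI-3, Itga7 is at -0.61 and Itga3 at 0.46 at DM 24h.

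The remaining members responded less to PFI-3, or in ways that fewer analyses kept. Itgb3 in GM read 4.99 and 6.71 FPKM with PFI-3 against 6.88 and 9.46 FPKM with DMSO (log2 -0.58 ± 0.14, edgeR adjusted p = 0.0229), but the call was lost in 6 of 14 alternatives (adjusted p up to 0.337), including those without GM DMSO library B or GM PFI-3 library A. Itgb5 in GM read 34.8 and 35.5 FPKM against 24.5 and 29.4 FPKM (log2 0.29 ± 0.07, edgeR adjusted p = 0.0213), a call lost in 4 of 14 (adjusted p up to 0.347), including those without GM DMSO library A or GM PFI-3 library B. At DM 24h the Itgb5 difference was 0.00 on the log2 scale, with a 95% interval from -0.13 to 0.13, and at DM 48h it was 0.06 (-0.07 to 0.19). Itgb3 had log2 differences of -0.28 ± 0.14 at DM 24h and -0.33 ± 0.15 at DM 48h, neither called (edgeR adjusted p = 0.173 and 0.121). Each was called in 2 of 14 alternatives, those with only the libraries compared (lowest edgeR adjusted p 5.58e-04 at DM 24h and 4.45e-04 at DM 48h). Itga4 at DM 48h had 16 and 15 counts with PFI-3 against 42 and 25 (log2 -1.17 ± 0.40, edgeR adjusted p = 0.0499). That call was lost in 8 of 14 alternatives, including each of the 4 libraries left out in turn, with adjusted p up to 0.353. In GM and at DM 24h the Itga4 differences were -0.85 ± 0.60 and -0.43 ± 0.42 on 2 to 25 counts, and were not called (edgeR adjusted p = 0.383 and 0.495). Itga9 had 0 to 3 counts with PFI-3 and 0 to 2 with DMSO.

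Itga5, the fibronectin-binding counterpart of Itga7, had no called PFI-3 difference with all libraries in the fit. In GM it read 56.2 and 45.8 FPKM with PFI-3 against 89.5 and 54.3 FPKM with DMSO, so the groups overlapped in FPKM, though not in TMM-scaled CPM (log2 -0.61 ± 0.19, edgeR adjusted p = 0.054). It was called in 5 of 14 alternatives, among them those without GM DMSO library B (log2 -0.95, edgeR adjusted p = 2.11e-05) and without GM PFI-3 library A (log2 -0.75, adjusted p = 0.04999), with the replicate block over all libraries (adjusted p = 0.0288) and with the block in the GM libraries alone (0.042). Without GM DMSO library A the log2 difference was -0.15 (adjusted p = 0.372). At DM 24h and DM 48h its log2 differences were -0.09 (95% interval -0.46 to 0.27) and -0.07 (-0.44 to 0.29). Itga6 at DM 24h read 6.05 and 6.01 FPKM with PFI-3 against 7.78 and 6.92 FPKM, just outside the threshold (log2 -0.33 ± 0.11, edgeR adjusted p = 0.0505), and was called in 6 of 14 alternatives. Itgav at DM 48h read 23.9 and 23.9 FPKM with PFI-3 against 19.7 and 20.0 FPKM without overlap, but was not called (log2 0.18 ± 0.07, edgeR adjusted p = 0.0614) and was called in 5 of 14 alternatives. In GM and at DM 24h its log2 differences were -0.10 ± 0.07 and 0.05 ± 0.07. Itgb1 read 199.7 and 151 FPKM in GM with PFI-3, beside 208 and 152 FPKM with DMSO: library A was the higher of the duplicates under both treatments. Its log2 PFI-3 differences were -0.14, -0.15 and 0.04 at GM, DM 24h and DM 48h, and the 95% interval at DM 48h ran from -0.24 to 0.33. In GM it was called lower without DMSO library B (log2 -0.38, edgeR adjusted p = 0.0243) and was 0.15 without DMSO library A; at DM 24h it was called in 2 of 14 alternatives.

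With PFI-3, 1 of 9 tested members was higher and 2 were lower in GM, against 5.46% and 6.15% of all genes tested. At DM 24h 1 was higher and 1 lower, against 12.2% and 11.4%, and at DM 48h 1 was higher and 1 lower, against 13.4% and 14.0%. The PFI-3 difference itself changed for 1 member between GM and DM 24h, 1 between DM 24h and DM 48h, and 2 between GM and DM 48h, against 3.37%, 12.1% and 14.5% of all genes. On the log2(FPKM + 1) scale the genome-wide split of higher to lower calls was 1057 to 347 in GM, against 685 to 771 from counts. It was 1863 to 1143 against 1533 to 1433 at DM 24h, and 2554 to 1356 against 1682 to 1756 at DM 48h. Leaving out any 1 of the 4 libraries compared lowered the genes called from 2966 to between 1320 and 1469 at DM 24h and from 3438 to between 1937 and 2073 at DM 48h, while without GM DMSO library B they went from 1456 to 2734 in GM. The calls of Itga7 in GM and of Itga7 and Itga3 at DM 24h and Itga3 at DM 48h kept their direction on both scales.

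The ratio of Itga7 to Itga3 sets side by side the subunits with called PFI-3 differences at DM 24h, so it adds no independent evidence. The ratio of Itga7 to Itga3 FPKM in PFI-3 cells was 0.899 and 0.885 in GM, 2.80 and 2.77 at DM 24h, then 8.56 and 8.90 at DM 48h. At DM 24h it was below the DMSO ratios of 5.87 and 5.87, and at DM 48h below those of 13.7 and 16.6. Itga7 over Itga5 was 2.48 and 2.60 with PFI-3 against 3.53 and 3.76 with DMSO at DM 24h. At DM 48h that ratio was 4.70 and 4.56 against 4.68 and 5.03, so the treatments overlapped. Itga7 over Itga6 at DM 48h was 21.1 and 20.0 with PFI-3 against 21.5 and 21.8 with DMSO. These ratios were not among the planned composition measures and were not tested. The laminin-binding share at DM 24h was 68.1% and 68.9% with PFI-3 against 73.2% and 73.9% with DMSO, but at DM 48h 78.2% and 77.6% against 78.5% and 79.2%. Thus at 48 h the class share differed by little while its makeup differed: Itga3 held 7.85% and 7.50% of alpha FPKM with PFI-3 and 5.12% and 4.32% with DMSO. The summed differentiation markers were also lower with PFI-3, at 1486 and 1471 CPM against 3809 and 3819 CPM at DM 24h, and at 16344 and 16129 CPM against 25005 and 25063 CPM at DM 48h, and 8 of 8 were called lower at both stages. Their part in the subunit differences was not tested.

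Other integrin subunits were mostly scarce. Of 17 listed, 16 were in the files and 11 were tested: from GM to DM 48h 5 were higher and 1 lower, against 37.2% and 35.9% of all genes, with a median log2 fold change of 1.49 against 0.03 over all genes. Itgb7, a beta subunit best known from lymphocytes, fell during differentiation in DMSO cells and was higher with PFI-3 at each stage. It had 320 and 456 counts in GM with DMSO and 1219 and 1303 with PFI-3, then 24 and 26 against 255 and 219 at DM 24h (log2 3.20 ± 0.25, edgeR adjusted p = 5.55e-06), and 3 and 3 against 64 and 34 at DM 48h. Its alpha partners are Itga4, at the counts given above, and Itgae, with at most 6 counts in any library. Itgb6, a partner of alphav, had 51 and 42 counts in GM, 135 and 152 at DM 24h, then 527 and 477 at DM 48h with DMSO. With PFI-3 it had 58 and 59 counts at DM 24h (log2 -1.33 ± 0.15, edgeR adjusted p = 7.98e-05) and 337 and 325 at DM 48h (log2 -0.66 ± 0.11, edgeR adjusted p = 9.95e-04).

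The matrix ligands of these receptors changed as well. Of 21 ligand genes, 19 were tested: from GM to DM 48h 10 were higher and 5 lower (median log2 0.39), against 37.2% and 35.9% of all genes. Lama2, the laminin chain of the muscle basement membrane and a ligand of alpha7 beta1, had 138 and 146 counts in GM and 2077 and 2149 at DM 48h (log2 4.0 ± 0.10, edgeR adjusted p = 9.81e-12). Lama4, another laminin alpha chain, had 0 and 1 counts in GM and 126 and 143 at DM 48h. Nid1, which links laminin to collagen IV, fell by 2.39 ± 0.09 and Spp1, an RGD ligand, by 2.23 ± 0.36 on the log2 scale (edgeR adjusted p = 3.80e-10 and 1.25e-04). With PFI-3, 6 ligands were lower in GM and 0 higher; at DM 24h 9 were lower and 2 higher (median log2 -0.44), and at DM 48h 9 lower and 3 higher (median -0.38). Of all genes, 6.15%, 11.4% and 14.0% were lower and 5.46%, 12.2% and 13.4% higher at these stages. Tnc, the tenascin bound by alpha9 and alphav integrins, had 983 and 938 counts with PFI-3 at DM 24h against 3696 and 3805, and 871 and 863 against 3160 and 3215 at DM 48h (log2 -2.01 ± 0.26 and -1.94 ± 0.26, edgeR adjusted p = 1.99e-04 and 1.71e-04). Lamb3, a chain of the epithelial laminin that alpha3 beta1 binds, fell at DM 24h (log2 -1.76 ± 0.20, edgeR adjusted p = 7.41e-05). Lamb2 was higher with PFI-3 at both DM stages (log2 0.47 ± 0.08 and 0.36 ± 0.08, edgeR adjusted p = 0.00154 and 0.00578), as were Nid1 at DM 24h (log2 0.45 ± 0.09, adjusted p = 0.00406) and Nid2 at DM 48h (log2 0.43 ± 0.07, adjusted p = 7.88e-04).

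On the cytoplasmic side, 27 of 29 adaptor genes were tested, and from GM to DM 48h 7 were higher and 15 lower (median log2 -0.63), against 37.2% and 35.9% of all genes. Itgb1bp2, the muscle protein melusin that binds the beta1 tail, had 4 and 0 counts in GM, 2260 and 2410 at DM 48h with DMSO, and 1423 and 1471 at DM 48h with PFI-3 (PFI-3 log2 -0.75 ± 0.13, edgeR adjusted p = 0.00119). The filamin genes parted: muscle Flnc rose by 1.62 ± 0.10 and the widely expressed Flna fell by 1.91 ± 0.12 on the log2 scale (edgeR adjusted p = 2.68e-08 and 2.40e-08). Actn1, the non-muscle alpha-actinin, fell by 1.64 ± 0.15 (edgeR adjusted p = 8.17e-07). With PFI-3, 7 adaptors were lower in GM and 0 higher, while 3 rose and 3 fell at DM 24h, and 1 rose and 3 fell at DM 48h, beside the same shares of all genes as for the ligands. At DM 24h the tetraspanin Cd151, which binds laminin-binding integrins, was higher (log2 0.25 ± 0.06, edgeR adjusted p = 0.013) and Sharpin, an integrin inhibitor, was higher too (log2 0.38 ± 0.10, adjusted p = 0.0141). The scaffold Bcar1 was lower at DM 24h (log2 -0.32 ± 0.10, edgeR adjusted p = 0.037), and at DM 48h the kindlin Fermt2 was lower (log2 -0.41 ± 0.09, adjusted p = 0.00629) and Parva higher (log2 0.30 ± 0.10, adjusted p = 0.047).

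The genes most like Itga7 across the 12 libraries, by Pearson r of log2(CPM + 1), were Dok7 (r = 0.998), Dnajb5 (0.993), Sh3glb1 (0.993), Chrna1 (0.992) and Klhl31 (0.991). Dok7 and Chrna1 are components of the neuromuscular junction. Dok7 stood at 13.2 and 14.8 CPM in GM with DMSO, 83.7 and 88.5 CPM at DM 24h with DMSO, and 42.4 and 41.8 CPM at DM 24h with PFI-3. Among the closest to Itga5 were Klhdc2 (0.911), Tns1 (0.907), Ccdc116 (0.907) and Polr3a (0.906). Tns1, a tensin and one of the listed adaptors, read 889 and 620 CPM in the GM DMSO libraries, where Itga5 was also higher in A than in B. The 12 points share 6 groups and the same libraries, and the values are descriptions.

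The promoter table of RefSeq (GRCm38.p6, 250 bases before to 50 after a listed start) held 8 windows for 7 of the 10 subunits. Itga6, Itga7 and Itgb3 had none there. A listed start need not be the outer end of the gene. The Itga9 window (chr9:118711442-118711741) lies inside the locus given above, as do the Itgav window (chr2:83724147-83724446) and the Itga3 window at chr11:95069149-95069448. The E-box CAGCTG, a palindrome and thus read alike on both strands, was in 4 of these windows, those of Itga4, Itga5, Itga9 and Itgb5, and in 16.3% of all 32851 windows. The general E-box CANNTG, which includes it and was likewise sought on both strands, was in 6 of 8 windows and in 72.3% of all. Of the 4 subunits with CAGCTG, Itga4 and Itgb5 rose, Itga5 fell and Itga9 was not tested.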

How the data were processed

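Total RNA from C2C12 cells was sequenced by the study's provider, and one table per library was deposited. Expected counts, FPKM and a length per gene were deposited by the authors. Per the submitters' processing notes, HISAT, StringTie, Cufflinks, Bowtie, RSEM and DESeq2 and the build mm10 were used; role, order and version are not given in the sources used here, and the formula of the length column is not stated. Groups were read from the sample titles. Expected counts, 93.3% to 93.7% of them whole, were rounded and fitted in 1 model of 6 groups over 12 libraries with edgeR 4.0.16 (R 4.3.3): TMM scaling, filterByExpr (12545 of 16288 genes), quasi-likelihood test, Benjamini-Hochberg adjustment over all genes tested, threshold 0.05. SEs are the absolute log2 fold change over the root of F, and 95% intervals are normal. Such intervals take no account of the degrees of freedom of the F test and are too narrow. For Itgb1 in DMSO cells at DM 24h against GM, the interval ran from -0.57 to -0.00036 with an unadjusted edgeR p of 0.0735. Fold changes come from TMM-scaled counts and can differ from ratios of FPKM in size and, for some values that were not called, in sign. For Itga5 with PFI-3 in GM, the log2 difference was -0.61 from counts and -0.45 with limma on log2(FPKM + 1).

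Alternatives were DESeq2 1.42.0 (also its size factors), limma 3.58.1 on log2(FPKM + 1) and log2(FPKM + 0.1), other filters, a replicate block, only the libraries compared, and leaving out each library. The code was tested on simulated data. The labels do not say what the letters A and B share, so the main fit used no pairing. Same-lettered libraries deviated together between the GM groups (r = 0.509 over 10656 genes), against -0.048 to 0.052 for the other pairs. For PFI-3 in GM the main fit thus left out a deviation that both groups shared, and fits with a replicate block are among the alternatives. All 10 subunits are described; from lists of other subunits, ligands and adaptors, the 2 largest called rises and falls among genes averaging 5 CPM or more, with groups apart, are named at DM 48h against GM and for PFI-3 at both DM stages. Further genes or values outside that rule (the Itgb7 counts in GM and at DM 48h, Itgae) were chosen after their values were seen. Some genes that these rules name are not reported here. Members and lists were chosen with earlier results of these data known. Duplicates measure only the spread between these cultures.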

Additional observations from a re-analysis of the deposited data

Results flagged for a closer look

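Some differences between PFI-3 and DMSO themselves differed between stages by an interaction test. Exposure to PFI-3 was also longer at the later stages, so stage and length of exposure cannot be told apart. For Itga3 the difference was greater at DM 24h than in GM by 0.74 (edgeR adjusted p = 0.0189) and greater at DM 48h than in GM by 0.92 (edgeR adjusted p = 0.0015) on the log2 scale. For Itga7 it was less negative at DM 48h than at DM 24h by 0.47 (edgeR adjusted p = 0.00253) and than in GM by 0.36 (edgeR adjusted p = 0.0112). In FPKM, both PFI-3 libraries lay on the same side of both DMSO libraries at DM 24h and DM 48h for both genes, and in GM for Itga7. The share of all genes set apart in this way was not counted, so the separation is a description only. For Itga7 at DM 48h it rested on 213.89 FPKM with PFI-3 against 214.53 FPKM with DMSO. That difference was not called (edgeR adjusted p = 0.0924). The GM libraries of Itga3 overlapped in FPKM and not in TMM-scaled CPM. The summed differentiation markers were lower with PFI-3 at both DM stages, and their part in these differences was not tested.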

How the results depend on the processing

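Groups of 2 and a GM pair that spread widely limit these results. No called fold change of a subunit changed sign under any alternative. With the 2 libraries of each compared group fitted alone, genes called for PFI-3 went from 1456 to 32 in GM, from 2966 to 5583 at DM 24h and from 3438 to 5688 at DM 48h; with the replicate block added to those fits they were 741, 5719 and 6034. Members called went from 3 to 0 in GM (3 with the block) and from 2 to 5 at DM 24h and DM 48h alike (5 and 5 with the block). At DM 48h they went to 1 without a filter or with DESeq2. For stage differences of the PFI-3 response, the fits of the compared libraries alone called 79 genes (763 with the block) against 423 between GM and DM 24h. They called 4154 (4336) against 1517 between DM 24h and DM 48h, and 1037 (2254) against 1824 between GM and DM 48h. Members called, in the same order, were 0 (1 with the block) against 1, 3 (4) against 1, and 1 (2) against 2. With limma on FPKM, at either pseudocount or without a filter, 0 members were called between GM and DM 24h. The replicate block over all 12 libraries left 79 of 81 subunit results on the same side and brought in Itga6 at DM 24h and Itga5 in GM for PFI-3.

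Leaving out 1 library gave 1190 to 2734 genes called for PFI-3 in GM, 1320 to 1469 at DM 24h and 1937 to 2073 at DM 48h, with 1 member at the lowest at both DM stages. For the stage differences it gave 92 to 995 genes and 0 to 3 members between GM and DM 24h, 790 to 865 genes between DM 24h and DM 48h, and 1010 to 2924 genes and 1 to 6 members between GM and DM 48h. The highest values of the differences from GM came without GM DMSO library B (995 also without A). The laminin-binding share was 56.4% from counts in GM with PFI-3. With all alpha genes, or from counts, it was 72.8% or 68.4% (DM 24h DMSO), 67.7% or 63.2% (DM 24h PFI-3), 78.0% or 74.7% (DM 48h DMSO) and 77.2% or 73.4% (DM 48h PFI-3), since a count is not divided by length.

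Some log2 values that were not called with all libraries changed sign under an alternative; ranges are over libraries left out. Of the values below, -0.52, -0.47, -0.38 and 0.42 for Itgb1, all without GM DMSO library B, and 0.29 and -0.35 for Itga6, both without GM DMSO library A, were called (edgeR adjusted p = 8.91e-04, 0.00152, 0.0243, 0.0452, 0.0343 and 0.0338). For Itgb1 they were 0.0011 (GM to DM 24h) and 0.061 (GM to DM 48h) without GM DMSO A, within ranges from -0.52 and -0.47, and -0.0062 from DM 24h to DM 48h with limma. Its PFI-3 difference in GM ranged from -0.38 to 0.15 over libraries left out, and its stage differences from -0.29 to 0.23 (GM to DM 24h) and from -0.11 to 0.42 (GM to DM 48h). Itgb3 ranged from -0.15 to 0.24 from GM to DM 24h, and from -0.13 to 0.019 for the stage difference from DM 24h to DM 48h. Itga5 from DM 24h to DM 48h ranged from -0.041 to 0.031 over libraries left out, and was 0.011 with DESeq2 or its size factors and 0.00066 with a mean of at least 10 counts; its PFI-3 difference at DM 48h was 0.015 or, at pseudocount 0.1, 0.016 with limma, and its stage difference from DM 24h to DM 48h ranged from -0.030 to 0.077. Itga6 ranged from -0.083 to 0.29 for PFI-3 in GM and from -0.35 to 0.023 for the stage difference from GM to DM 48h, and was 0.023 or, at pseudocount 0.1, 0.025 for PFI-3 at DM 48h with limma. Itgb5 was -0.026 for PFI-3 at DM 24h with DESeq2 or its size factors. The stage differences of Itga4 ranged from -0.29 to 1.83 (GM to DM 24h; -0.021 with limma at pseudocount 1) and from -1.03 to 1.10 (GM to DM 48h). The cause of these shifts was not tested.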
